A study of Mus musculus with 7 samples.

Results

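The 10 genes described here belong to YAP/TEAD signaling and to the response of muscle cells to mechanical load. They were taken by symbol, as Ctgf, Cyr61, Ankrd1, Amotl2, Lats2, Yap1, Wwtr1, Tead1, Tead4 and Vgll2, out of the 26607 genes listed in each library. Ctgf and Cyr61 are older symbols, which current annotation lists as Ccn2 and Ccn1. The libraries come from myotubes of C2C12, an established mouse myoblast line whose cells fuse when serum is lowered. The control group holds 3 libraries of unstimulated myotubes, numbered 1, 3 and 4, and the EPS group holds 4 libraries, numbered 1 to 4, of myotubes given electrical pulse stimulation, which makes them contract. Stimulation began 3 days after the start of differentiation, lasted 24 h and left 1 h of rest afterwards. All libraries come from a single cell line, and nothing in the labels says whether the replicates were separate cultures, so p-values measure the spread between these libraries only.

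YAP (encoded by Yap1) and TAZ (encoded by Wwtr1) are transcriptional coactivators that cannot bind DNA alone. In stretched, spread or stiffly anchored cells they enter the nucleus and act through TEAD factors, while the Hippo kinases LATS1 and LATS2 phosphorylate them and keep them in the cytoplasm. Ctgf, Cyr61, Ankrd1 and Amotl2 are widely used readouts of this pathway, and TEAD sites, long known in muscle as M-CAT elements, occur in many muscle promoters. The question put to the data was whether the transcripts of the pathway and of its targets differed between stimulated and unstimulated myotubes.

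Promoter sequences are shown because TEAD factors act by binding DNA, and only windows around the start sites were searched. The hexamer CATTCC, or GGAATG on the opposite strand, is the core that TEAD factors bind. RefSeq promoters on GRCm38.p6, each of 300 bases from 250 before to 50 after a transcription start, were found for 7 of the 10 genes, and Ctgf, Tead1 and Tead4 had no entry. The hexamer was present on either strand in 6 of the 7, all but Vgll2. It occurs in 14.7% of all 32851 promoters of that length, and in 16.6% of genes when any promoter of a gene is counted. Capitals mark the hexamer below, and each sequence is written 5′ to 3′ on the strand of its gene. Cyr61 is shown with the full 250 bases before its start, at chr3:145649986-145650235 on the minus strand, and the other genes with 30 bases around each hexamer.
Cyr61: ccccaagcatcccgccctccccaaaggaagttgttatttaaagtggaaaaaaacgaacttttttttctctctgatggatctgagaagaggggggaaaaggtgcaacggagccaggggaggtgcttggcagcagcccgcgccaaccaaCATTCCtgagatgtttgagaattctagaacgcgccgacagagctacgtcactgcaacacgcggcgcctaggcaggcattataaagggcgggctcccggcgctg
Ankrd1, distal, chr19:36120037-36120066, minus strand: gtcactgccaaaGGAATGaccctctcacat
Ankrd1, proximal, chr19:36119950-36119979, minus strand: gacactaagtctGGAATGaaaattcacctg
Amotl2, chr9:102717727-102717756, plus strand: ctgaaactctcaCATTCCtggcatagcagc
Lats2, chr14:57746102-57746131, minus strand: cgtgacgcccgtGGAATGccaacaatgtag
Yap1, chr9:8004720-8004749, minus strand: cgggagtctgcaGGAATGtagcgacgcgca
Wwtr1, chr3:57576029-57576058, minus strand: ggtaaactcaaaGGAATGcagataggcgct
The first base of the hexamer lay 103 bases before the start in Cyr61, 210 and 123 bases before it in Ankrd1, 65 in Amotl2 and 141 in Yap1. In Wwtr1 it lay 136 or 170 bases before the start, depending on which of its listed starts is used, and in Lats2 it began at transcribed base 5. Ankrd1 held the hexamer at 2 positions, and 1.36% of all promoters held it at 2 or more. In GENCODE M21 the windows of Ankrd1 and Amotl2 also lie inside exons of transcripts that start further upstream. A match describes the letters only, and no binding was measured here.

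**Figure D1:**
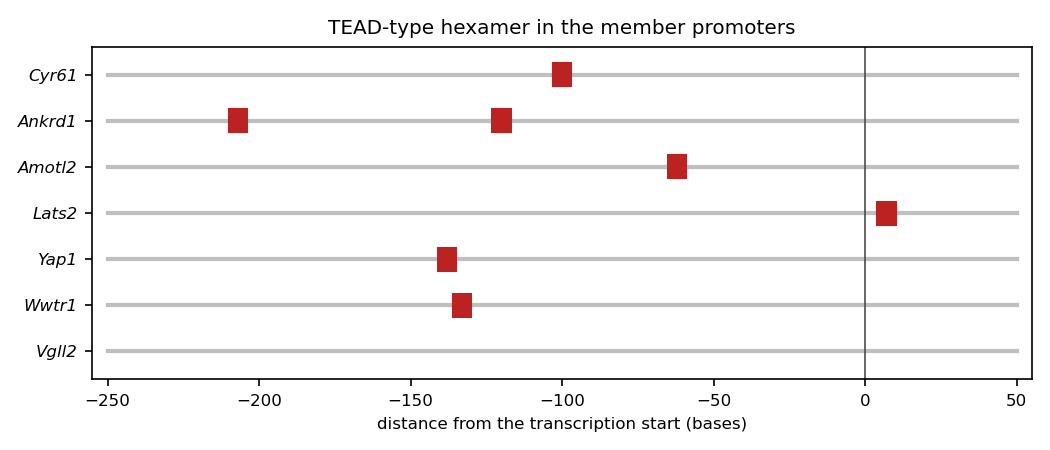
Position of the TEAD hexamer (red) in the promoter windows (grey) of the 7 genes with a RefSeq entry, in bases from the transcription start, with 1 start drawn for each gene. Cyr61, Amotl2, Yap1 and Wwtr1 hold it at 1 position before the start, Ankrd1 at 2, Lats2 just after the start, and Vgll2 at none.

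Sequencing depth was between 16616917 and 22120641 reads in the control libraries and between 18830229 and 21892568 in the EPS libraries, as recovered from the deposited CPM. The 10 genes had 68 to 15409 reads per library, with Vgll2 the lowest. Control replicate 4 stands apart in its low genes, since 359 of its genes had 1 to 5 reads while the 6 remaining libraries had 2670 to 3181 such genes. Whether it was filtered or processed differently before deposit is not given in the sources used here, so its zero and low values may not mean the same as in the other libraries. All 12 myotube markers were above 1 CPM in at least 1 library, and their summed level was 18600 to 21800 CPM in the control and 13000 to 19900 CPM in the EPS group, with 1 of them, Actn2, lower at an unadjusted P under 0.05 in limma. In edgeR and in DESeq2, 2 of them, Myog and Actn2, fell past P under 0.01 and 2-fold, which edgeR gave for 1.57% and DESeq2 for 1.4% of all genes in that direction, and for 1.72% and 1.66% in the other. Myog was at 473 to 1790 CPM in the control and 278 to 605 CPM in the EPS group, with overlap (log2 fold change -1.07, unadjusted P 0.0525 in limma). Actn2 had a P under 0.05 in limma in all 7 fits with 1 library left out, at -1.27 to -0.77. Of 10 markers of undifferentiated and proliferating cells, the summed level was 353 to 401 CPM in the control and 393 to 1040 CPM in the EPS group, and 5 of them were higher and 2 lower at that P, where 8.4% of all tested genes were higher and 3.21% lower. In edgeR 3 of them rose (Mki67, Ccnb1 and Aurka) and 2 fell (Id1 and Id3) past P under 0.01 and 2-fold, and DESeq2 made the same calls but for Aurka. In limma Top2a, Cdk1, Aurka and Id3 each missed a P under 0.05 in 5 of the 7 fits with 1 library left out, with log2 fold changes of 0.63 to 1.19, 0.63 to 1.25, 0.57 to 1.11 and -1.27 to -0.73. Mki67, Ccnb1 and Id1 reached it in all 7, at 1.01 to 1.63, 1.02 to 1.84 and -1.32 to -0.65. Of 10 fibroblast and adipocyte markers, Thy1, Adipoq, Fabp4 and Plin1 stayed under 1 CPM in every library, and the summed level was 133 to 175 CPM in the control and 88.5 to 180 CPM in the EPS group, with Pdgfra higher and Dpt and Lum lower at a P under 0.05 in limma and Lum alone called by edgeR and DESeq2. Dpt and Lum each missed that P in 5 of the 7 fits with 1 library left out, at -0.62 to -0.24 and -1.14 to -0.72 on the log2 scale, and Pdgfra reached it in all 7, at 0.43 to 0.89. Fewer cells of a type and less RNA per cell cannot be told apart in such libraries, and the part of these shifts in the results below was not tested.

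Among the 10 genes, Ctgf fell 2.64-fold in the EPS group, and it alone passed an unadjusted P under 0.01 together with a 2-fold change in limma. Cyr61, its closest relative in the set, was 1.59-fold lower and separated the groups as well. The mean level of the other 8 genes differed between groups by 1.36-fold at most, and their groups overlapped. The background for these counts is that 1.41% of the 19144 tested genes passed both thresholds, 0.966% in the higher and 0.439% in the lower direction. Of those 269 calls 68.8% were higher, a share that was 51.6% to 54.2% under quantile normalization, median-of-ratios scaling, edgeR and DESeq2. Groups did not overlap in 10.6% of all tested genes, with EPS the higher group in 7.76% and the lower group in 2.85%. After Benjamini-Hochberg adjustment in limma, 0.141% of tested genes, 0.0992% higher and 0.0418% lower, and 0 of the 10 stayed under 0.05. Without adjustment, 2 of the 10 were lower and 0 higher at a P under 0.05, against 11.6% of all genes, 3.21% lower and 8.4% higher. Under quantile normalization, median-of-ratios scaling, edgeR and DESeq2, 4 of the 10 were lower at that P, with Wwtr1 and Tead4 added to Ctgf and Cyr61. Of all genes, 4.98%, 4.77%, 5.95% and 5.42% were lower at that P under these settings, in the same order. On the same recovered reads, edgeR gave 1 of the 10 genes, Ctgf, an adjusted p under 0.05, and DESeq2 gave 2, Ctgf and Cyr61, where these tools called 1.51% and 2.6% of all genes. Past P under 0.01 and 2-fold, edgeR called 1.72% of all genes higher and 1.57% lower, and DESeq2 1.66% higher and 1.4% lower. The median log2 fold change of the 10 genes was -0.27, beside 0.0414 over all tested genes. Genes with a mean of at least 1 CPM had a median of 0.101 on the deposited scale, which median-of-ratios scaling moved to -0.00482. Relative to that median, 9 of the 10 genes were lower and 1, Lats2, was higher.

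**Figure D2:**
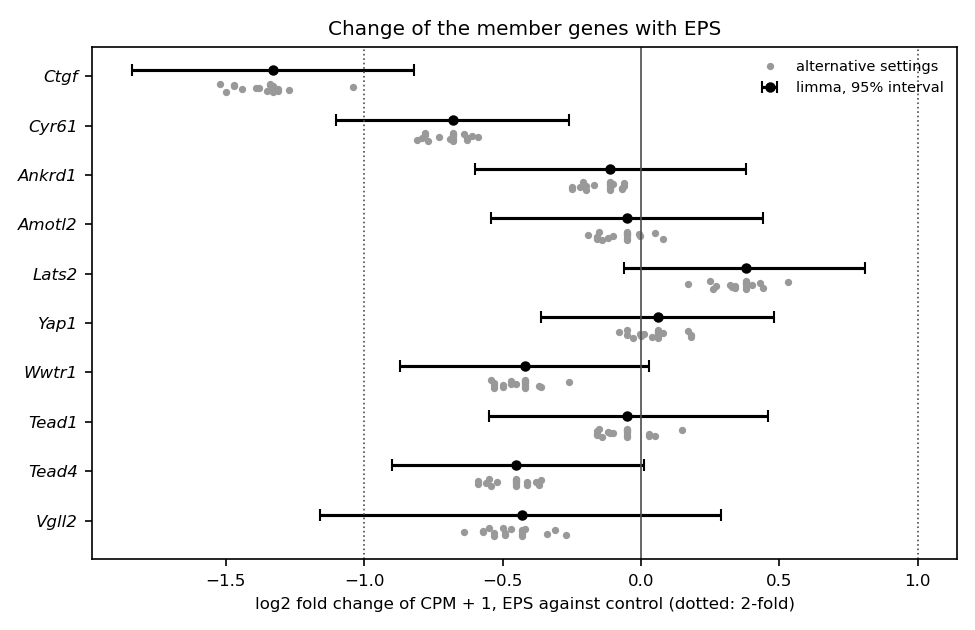
Log2 fold change of CPM + 1 between EPS and control for the 10 genes, with the limma value and its 95% interval in black and the 18 alternative settings as grey dots. The interval lies below 0 for Ctgf and Cyr61 and includes 0 for the other 8 genes.

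Ctgf encodes connective tissue growth factor, a secreted matrix protein, and is the gene most often read as a YAP/TEAD target (ENSMUSG00000019997.11, chr10:24595442-24598683 on GRCm38). Its level was 104.7, 105.9 and 191.1 CPM in control replicates 1, 3 and 4. In EPS replicates 1 to 4 it was 56.8, 48.8, 45.0 and 52.4 CPM. The groups did not overlap, the EPS values lay close together, and control replicate 4 stood well above the other control libraries. The means were 133.9 ± 49.5 CPM (SD, n = 3) and 50.7 ± 5.06 CPM (SD, n = 4). On the scale of the test, as a difference between group means of log2(CPM + 1), Ctgf changed by -1.33 (adjusted p = 0.0712 from limma, with a standard error of 0.22), and the log2 fold changes from limma are all on that scale. In the exact two-sided permutation test of 1 gene over the 35 assignments of libraries to groups, p was 0.0286, the smallest that 3 against 4 libraries can give. Without control replicate 4 the log2 fold change was -1.04, still past P under 0.01 and 2-fold. Exons of an antisense transcript, Gm15270, share 665 bases or 23.2% of the exon length of Ctgf, and the use of strand in counting is not given in the sources used here.

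Cyr61 encodes the related matrix protein CCN1 (ENSMUSG00000028195.4, chr3:145646976-145649981). It stood at 210.2, 172.0 and 219.1 CPM in the control libraries. In the EPS libraries it stood at 103.8, 111.8, 126.3 and 162.0 CPM. The groups did not overlap, but EPS replicate 4 came within reach of control replicate 3. The means were 200.4 ± 25.0 CPM (SD, n = 3) and 126.0 ± 25.8 CPM (SD, n = 4), with a log2 fold change of -0.68 (standard error 0.19, 95% interval -1.10 to -0.26, adjusted p = 0.201 from limma; exact permutation test, p = 0.0571). The change was smaller than 2-fold. Its unadjusted P was under 0.01, as in 4.17% of tested genes, 2.83% higher and 1.34% lower. With 1 library left out the log2 fold change was between -0.81 and -0.59, and the P stayed under 0.05 but was not under 0.01 without control replicate 1 or 4 or EPS replicate 1, 2 or 3.

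Ankrd1 encodes a titin-associated ankyrin repeat protein that moves between the sarcomere and the nucleus and is induced by stretch (ENSMUSG00000024803.9, chr19:36111961-36120099). Its level was 653.4, 622.3 and 560.0 CPM in the control. In the EPS group it was 503.5, 750.7, 523.1 and 515.8 CPM. EPS replicate 2 was the highest of the 7 libraries, and the other EPS libraries were the 3 lowest. The log2 fold change was -0.11 with a 95% interval from -0.60 to 0.38 (adjusted p = 0.869 from limma). Without EPS replicate 2 it was -0.25. Ankrd1 did not show the separation of groups seen for Ctgf and Cyr61.

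Amotl2 and Lats2 are targets that also restrain the pathway. Amotl2 encodes angiomotin-like 2, a junctional protein that binds YAP, and Lats2 encodes the kinase itself. Amotl2 (ENSMUSG00000032531.15, chr9:102716672-102733418) was at 232.7, 214.5 and 165.8 CPM in the control and at 176.5, 247.0, 224.3 and 148.7 CPM in the EPS group. The EPS values enclosed all control values. The log2 fold change was -0.05 with a 95% interval from -0.54 to 0.44, and its sign changed without control replicate 1 (0.05) or EPS replicate 4 (0.08). Lats2 (ENSMUSG00000021959.16, chr14:57689662-57758388) was at 98.1, 85.0 and 59.1 CPM in the control and at 99.6, 110.9, 113.6 and 89.8 CPM in the EPS group. Control replicate 4 was the lowest library, and only EPS replicate 4 lay below the highest control value. The log2 fold change of Lats2 was 0.38 with a 95% interval from -0.06 to 0.81 (adjusted p = 0.494 from limma; exact permutation test, p = 0.114), and it was 0.17 without control replicate 4 and 0.53, with a P under 0.05, without control replicate 1. Another GENCODE gene on the same strand, Gm49361, shares 42.4% of the exon length of Lats2 and is not among the listed genes, so how its reads were assigned is unknown.

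**Figure D3:**
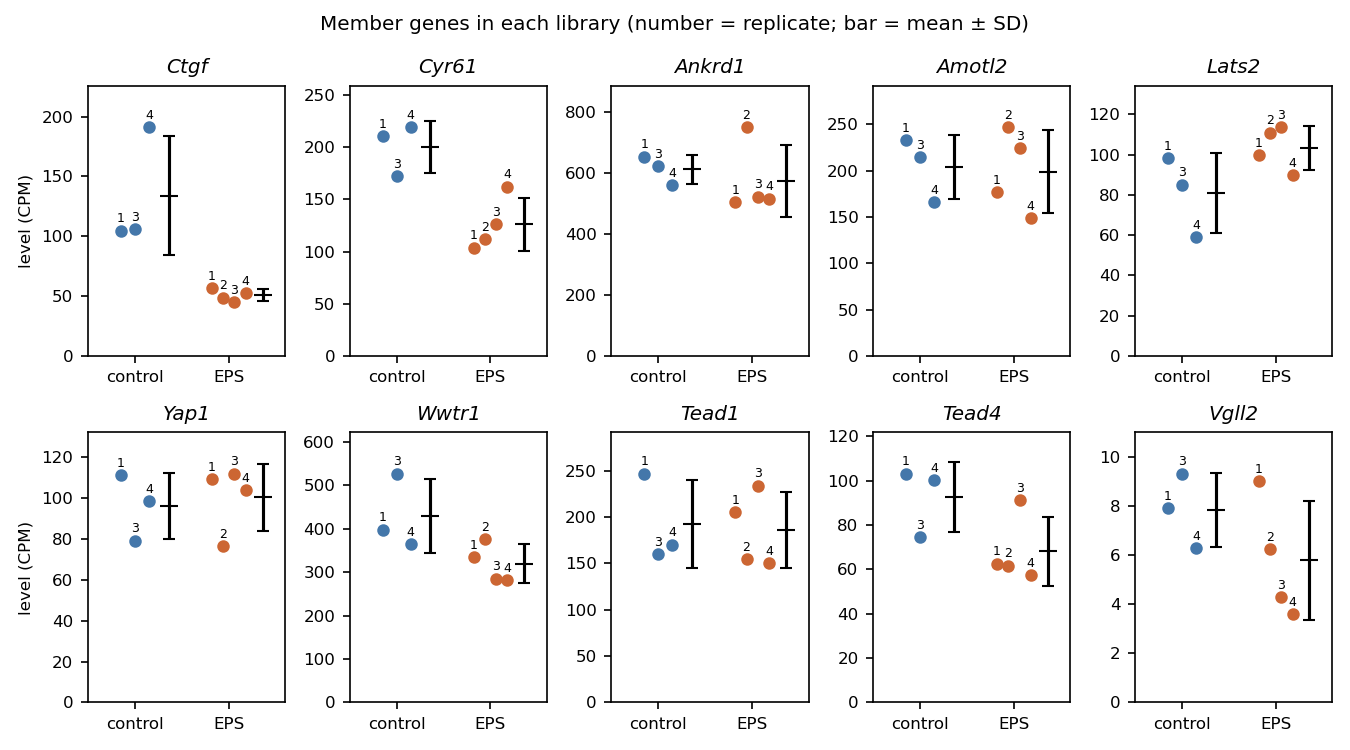
Level in CPM of each of the 10 genes in the 3 control (blue) and 4 EPS (orange) libraries, with the replicate number above each point and the mean ± SD of each group as a bar; each axis starts at 0. Ctgf and Cyr61 separate the groups, whereas the other 8 genes overlap.

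The coactivators themselves overlapped between the groups. Yap1 (ENSMUSG00000053110.13, chr9:7931999-8004596) was at 111.2, 79.3 and 98.5 CPM in the control and at 109.3, 76.4, 112.0 and 103.9 CPM in the EPS group. Both groups spanned nearly the same range, with a log2 fold change of 0.06 and a 95% interval from -0.36 to 0.48. The sign of Yap1 turned to -0.05 under median-of-ratios scaling. Wwtr1 (ENSMUSG00000027803.14, chr3:57455649-57575910) was at 397.7, 527.0 and 364.9 CPM in the control and at 334.0, 376.8, 285.2 and 281.1 CPM in the EPS group. The 3 lowest libraries of Wwtr1 were from EPS replicates 1, 3 and 4, and EPS replicate 2 lay above control replicate 4. Its log2 fold change was -0.42 with a 95% interval from -0.87 to 0.03 (adjusted p = 0.464 from limma; exact permutation test, p = 0.0857). With 1 library left out it was between -0.53 and -0.26, the latter without control replicate 3, and its P was under 0.05 without control replicate 4 or EPS replicate 2.

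TEAD1 and TEAD4 are the DNA-binding partners, and TEAD4 is known in muscle as a factor induced during myoblast differentiation. Tead1 (ENSMUSG00000055320.17, chr7:112679318-112906807) was at 246.8, 160.2 and 170.2 CPM in the control and at 205.5, 154.6, 233.7 and 150.3 CPM in the EPS group. The groups covered similar ranges, with a log2 fold change of -0.05 and a 95% interval from -0.55 to 0.46. Tead4 (ENSMUSG00000030353.15, chr6:128224288-128300823) was at 103.2, 74.6 and 100.2 CPM in the control and at 62.6, 61.7, 91.3 and 57.4 CPM in the EPS group. EPS replicates 1, 2 and 4 were below all control libraries, and EPS replicate 3 was above control replicate 3. The log2 fold change of Tead4 was -0.45 with a 95% interval from -0.90 to 0.01 (adjusted p = 0.439 from limma; exact permutation test, p = 0.0857). With 1 library left out it was between -0.59, without control replicate 3 or EPS replicate 3, and -0.36, without control replicate 1. Tead4 had an unadjusted P under 0.05 without control replicate 3 and under 0.01 without EPS replicate 3.

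Vgll2 encodes vestigial-like 2, a muscle-enriched cofactor that binds TEAD proteins in place of YAP and TAZ (ENSMUSG00000049641.14, chr10:52022502-52028471). It had 136, 155 and 139 reads in the control libraries, or 7.93, 9.33 and 6.28 CPM. In the EPS libraries it had 194, 128, 94 and 68 reads, or 9.03, 6.24, 4.29 and 3.61 CPM. EPS replicates 2, 3 and 4 were below all control libraries and EPS replicate 1 was near the highest of them, so the EPS group was the more spread. The log2 fold change was -0.43 with a 95% interval from -1.16 to 0.29 (adjusted p = 0.654 from limma; exact permutation test, p = 0.2). It was -0.64 without EPS replicate 1 and -0.27 without EPS replicate 4. A 2-fold decrease of Vgll2 lies inside this interval. For Ankrd1, Amotl2, Lats2, Yap1, Wwtr1, Tead1 and Tead4 the limma interval on the deposited scale excludes a change of 2-fold in either direction. Its lower end came nearest to a 2-fold decrease for Tead4 and Wwtr1, at -0.9 and -0.87. Under median-of-ratios scaling the log2 fold changes of these genes were -0.56 and -0.53, and no interval is given for that setting.

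Levels of different genes were compared per length, as CPM per kilobase of merged exons in GENCODE M21. Merged exons include those of all annotated transcripts of a gene, whether or not these cells use them, so the order depends on the annotation. In CPM alone, Tead1 was above Tead4 in the control, at 192.4 against 92.7. In the control, Ankrd1 was highest at 212 ± 16.5 CPM per kb (SD, n = 3), followed by Cyr61 at 99.3 ± 12.4 and Wwtr1 at 89.9 ± 17.9, whose libraries overlapped. Ctgf came next at 46.8 ± 17.3, then Amotl2 at 32.5 ± 5.50 and Tead4 at 25.8 ± 4.37, each overlapping its neighbor. Tead1 at 14.2 ± 3.49, Lats2 at 11.6 ± 2.85 and Yap1 at 10.4 ± 1.74 overlapped one another, and Vgll2 was lowest at 4.76 ± 0.924. On this scale the TAZ transcript was above the YAP transcript in every library, at 76.4 to 110 against 8.56 to 12.0 CPM per kb in the control and 58.8 to 78.8 against 8.25 to 12.1 in the EPS group. In the EPS group Ctgf, at 17.7 ± 1.77 CPM per kb (SD, n = 4), moved from the fourth to the sixth place. Cyr61 and Wwtr1 changed places, as did Tead1 and Lats2, and both pairs overlapped in each group. Its lowest control library, 36.6 CPM per kb, was above the highest Tead4 library, 28.7, whereas in the EPS group the 2 genes overlapped at 15.7 to 19.9 and 15.9 to 25.4 CPM per kb.

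The genes whose pattern over the 7 libraries was most like that of Ctgf were Pxn, Kctd15 and Srebf1, with Pearson r on log2(CPM + 1) of 0.998, 0.983 and 0.978 among 12255 genes with a mean of at least 1 CPM. Pxn encodes paxillin, a scaffold protein of focal adhesions. Without control replicate 4 the values were 0.996, 0.962 and 0.950, and within the 4 EPS libraries they were 0.921, 0.895 and 0.191. For Cyr61 the nearest genes were Acacb, Nod2 and Slc25a25, at 0.985, 0.961 and 0.959. For Ankrd1 they were 4930539J05Rik, Laptm4a and Baiap2l1, at 0.970, 0.956 and 0.949, and for Vgll2 they were Ubxn11, Nucb2 and Htr7, at 0.955, 0.947 and 0.944. Within the 4 EPS libraries r was 0.965, 0.967 and 0.896 for Cyr61 and 0.956, 0.986 and 0.996 for Vgll2. For Ankrd1 it was 0.999, 0.995 and 0.953 there, where replicate 2 stood apart in the level of Ankrd1. The genes named have the highest of many r values over few libraries that share group and depth, and are given as a description. 

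Other genes of the pathway were followed in 6 lists, read against 0.966% of all tested genes higher and 0.439% lower past P under 0.01 and 2-fold in limma, and against 8.4% higher and 3.21% lower at an unadjusted P under 0.05. Of 14 Hippo kinases and adaptors, 0 passed both thresholds in limma and 1 was higher at an unadjusted P under 0.05, with a list median log2 fold change of 0.11. That gene was Wwc1, which encodes the LATS activator KIBRA. Its reads numbered 1, 2 and 5 in the control libraries and 14, 11, 20 and 20 in the EPS libraries (log2 fold change 0.65 on the CPM + 1 scale, adjusted p = 0.0841 from limma). Wwc1 passed both thresholds in edgeR (2.36, adjusted p = 0.161) and in DESeq2 (2.40, adjusted p = 0.0813), as did 1.72% and 1.66% of all genes in that direction. Its log2 fold change was 1.95 with a pseudocount of 0.1. The next smallest P of the list was that of the kinase cofactor Mob1b, at 43.6 ± 6.84 CPM (SD, n = 3) against 51.0 ± 4.93 CPM (SD, n = 4) with EPS, within the spread (log2 fold change 0.23, and 0.09 without control replicate 4). Of 12 tested YAP, TAZ and TEAD binding partners, 0 passed both thresholds in limma, edgeR or DESeq2, and 0 had an unadjusted P under 0.05 in limma. The smallest P values of that list belonged to Jub, listed today as Ajuba and encoding an inhibitor of LATS, and to Tead2. Jub was at 74.9 ± 13.1 CPM (SD, n = 3) against 101 ± 18.2 CPM (SD, n = 4), and Tead2 at 58.2 ± 14.8 CPM (SD, n = 3) against 69.8 ± 6.15 CPM (SD, n = 4). For Tead2 the log2 fold change was 0.28, and 0.18 to 0.48 with 1 library left out, the highest without control replicate 4.

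Of 24 further YAP/TAZ target genes, 1 rose and 1 fell past both thresholds in limma, and the list median was 0.10, beside 0.0414 over all tested genes and 0.101 over genes with a mean of at least 1 CPM. In edgeR and in DESeq2, 2 rose and 2 fell, with Nt5e and Fjx1 added to the pair from limma, beside 1.72% of all genes higher and 1.57% lower in edgeR and 1.66% and 1.4% in DESeq2. Igfbp3, which encodes a binding protein of insulin-like growth factors, was at 9.74, 10.7 and 14.8 CPM in the control and 4.05, 4.68, 3.75 and 6.32 CPM in the EPS group, without overlap (log2 fold change -1.16, standard error 0.26, adjusted p = 0.135 from limma). Without control replicate 4 it was -1.0 and no longer past both thresholds. The adjusted p of Igfbp3 was 0.00915 in edgeR and 0.000106 in DESeq2. Birc5, which encodes survivin, a protein of dividing cells, was at 12.5, 14.1 and 13.3 CPM in the control and 33.3, 24.6, 19.1 and 63.5 CPM in the EPS group (log2 fold change 1.19, standard error 0.36, adjusted p = 0.234 from limma). All EPS libraries of Birc5 were above the control, and replicate 4 was the highest. Its call was lost without EPS replicate 4 (0.87), EPS replicate 1 (1.17), control replicate 1 (1.15), control replicate 3 (1.24) or control replicate 4 (1.19), and it was also lost under quantile normalization (1.06), with median-of-ratios scaling (1.09) and with no filter (1.19). The adjusted p of Birc5 was 0.0393 in edgeR and 0.0168 in DESeq2. At an unadjusted P under 0.05 in limma, Crim1 and Nt5e were also higher and Fjx1 also lower; these 3 are named because of their values. Crim1 was at 28.9 ± 5.73 CPM (SD, n = 3) against 60.7 ± 22.9 CPM (SD, n = 4), and Nt5e at 7.16 ± 2.88 CPM (SD, n = 3) against 16.4 ± 6.54 CPM (SD, n = 4). Fjx1 was at 2.44 ± 2.23 CPM (SD, n = 3) against 0.504 ± 0.235 CPM (SD, n = 4), and its control libraries ranged from 1.05 to 5.02 CPM. On the log2(CPM + 1) scale Fjx1 differed by -1.02, by -0.53 without control replicate 4, and by -2.39 in edgeR and -2.41 in DESeq2.

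The other mechanical routes gave mixed directions. Of 20 targets and regulators of MRTF and SRF, which couple actin assembly to transcription, 1 fell past both thresholds in limma, and the list median was 0.05. In edgeR and in DESeq2 2 fell, Egr1 and Actb, beside 1.57% of all genes lower in edgeR and 1.4% in DESeq2. Actb was at 707 to 2680 CPM in the control and 618 to 899 CPM in the EPS group, with overlap. In limma its log2 fold change was -0.72 with an unadjusted P of 0.127. DESeq2 also gave Acta2 an adjusted p under 0.05. Groups did not overlap in 3 genes of that list, Egr1, Acta2 and Srf, all lower with EPS, beside 2.85% of all tested genes. Acta2 was at 2424 ± 682 CPM (SD, n = 3) against 1453 ± 290 CPM (SD, n = 4). Srf was at 87.3 ± 28.1 CPM (SD, n = 3) against 62.6 ± 4.61 CPM (SD, n = 4). Their unadjusted P in limma was 0.0775 and 0.0625. Egr1, an immediate early factor, was at 114, 94.2 and 97.7 CPM in the control and 39.5, 44.1, 57.5 and 43.2 CPM in the EPS group, without overlap (log2 fold change -1.14, standard error 0.17, adjusted p = 0.0542 from limma), and it kept this call in each of its 18 alternatives. Its adjusted p was 0.00274 in edgeR and 7.48e-06 in DESeq2. One other gene of that list, Myl9, had an unadjusted P under 0.05 and is named for its value; it was at 33.7 ± 15.4 CPM (SD, n = 3) against 58.1 ± 12.8 CPM (SD, n = 4), and its log2 fold change of 0.83 became 0.58 without control replicate 4 and 0.74 without control replicate 1, both above that P, and 1.17 without control replicate 3, past both thresholds. Of 16 titin-linked and Z-disc load sensors, 1 fell past both thresholds in limma, and the list median was -0.21. In edgeR 1 rose (Xirp2) and 2 fell (Ankrd23 and Tcap), and in DESeq2 1 rose (Xirp2) and 2 fell (Ankrd23 and Myoz1). Of all genes, edgeR called 1.72% higher and 1.57% lower, and DESeq2 1.66% and 1.4%. Tcap was at 15.8 to 104 CPM in the control and 11.0 to 23.3 CPM in the EPS group, with overlap. Myoz1 was at 1.75 to 4.88 and 1.17 to 1.65 CPM. In limma they differed by -1.11 (unadjusted P 0.0846) and -0.62 (unadjusted P 0.054). Ankrd23, a relative of Ankrd1 in the same protein family, was at 125, 142 and 387 CPM in the control and 64.7, 112.6, 71.8 and 64.0 CPM in the EPS group (log2 fold change -1.31, standard error 0.38, adjusted p = 0.228 from limma). Its groups did not overlap, but control replicate 4 was far above the others. Without it the log2 fold change was -0.80 and the call was lost, as it also was without EPS replicate 1 (-1.23), 3 (-1.28) or 4 (-1.23), or with no filter (-1.31). The adjusted p of Ankrd23 was 0.00836 in edgeR and 0.00134 in DESeq2.

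Another 5 load sensors were higher at an unadjusted P under 0.05 in limma without passing 2-fold and P under 0.01 there, and are named for that. Ankrd2, the third protein of the Ankrd1 family, was at 57.2 ± 29.8 CPM (SD, n = 3) against 89.5 ± 13.3 CPM (SD, n = 4) with EPS. Csrp3, the muscle LIM protein, was at 49.1 ± 12.1 CPM (SD, n = 3) against 74.7 ± 19.6 CPM (SD, n = 4). The actin-binding repeat proteins Xirp2 and Nrap were at 23.9 ± 13.2 and 140.8 ± 54.6 CPM (SD, n = 3) against 57.2 ± 22.9 and 265 ± 81.2 CPM (SD, n = 4). Myoz2, which anchors calcineurin at the Z-disc, was at 137 ± 22.2 CPM (SD, n = 3) against 208 ± 44.0 CPM (SD, n = 4). Each of the 5 lost a P under 0.05 in limma when 1 library or another was left out, and their log2 fold changes then ranged from 0.49 to 1.13 for Ankrd2, 0.43 to 0.78 for Csrp3, 0.90 to 1.65 for Xirp2, 0.64 to 1.21 for Nrap and 0.45 to 0.71 for Myoz2. Ankrd2 passed both thresholds without control replicate 4 (1.13) and missed a P under 0.05 without control replicate 1 (0.49) or 3 (0.60). It also missed that P without EPS replicate 1, 2 or 4, with no filter, under quantile normalization and median-of-ratios scaling, and in edgeR and DESeq2. Xirp2 (0.90) and Nrap (0.64) missed it without control replicate 3. Xirp2 also missed it without EPS replicate 3 (1.05) and with no filter (1.25), and Myoz2 without control replicate 1 (0.48). Csrp3 missed it in 5 of the 7 fits with 1 library left out. The P of Csrp3 was also above 0.05 with no filter (0.59), under quantile normalization (0.51) and median-of-ratios scaling (0.48), and in DESeq2 (0.49). The 3 relatives Ankrd1, Ankrd2 and Ankrd23 had log2 fold changes of -0.11, 0.74 and -1.31. Among 14 mechanosensing channels and focal adhesion genes, 0 passed both thresholds in limma, and 2, Itgb1bp2 and Pxn, were lower at an unadjusted P under 0.05, with a list median of -0.11. Itgb1bp2, which encodes the muscle integrin partner melusin, was at 106.5 ± 16.3 CPM (SD, n = 3) against 54.6 ± 6.03 CPM (SD, n = 4), or -0.95 on the log2 scale in limma. It passed both thresholds in edgeR and DESeq2, beside 1.57% and 1.4% of all genes lower. In limma it also passed them under quantile normalization (-1.02), median-of-ratios scaling (-1.06) and the replicate block (-1.01). The same held without control replicate 1 (-1.02) or 3 (-1.0) or EPS replicate 2 (-1.01). Pxn was at 145.9 ± 24.1 CPM (SD, n = 3) against 95.9 ± 3.09 CPM (SD, n = 4), or -0.59 on the log2 scale (adjusted p = 0.16 from limma, 0.105 from edgeR and 0.0133 from DESeq2).

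**Figure D4:**
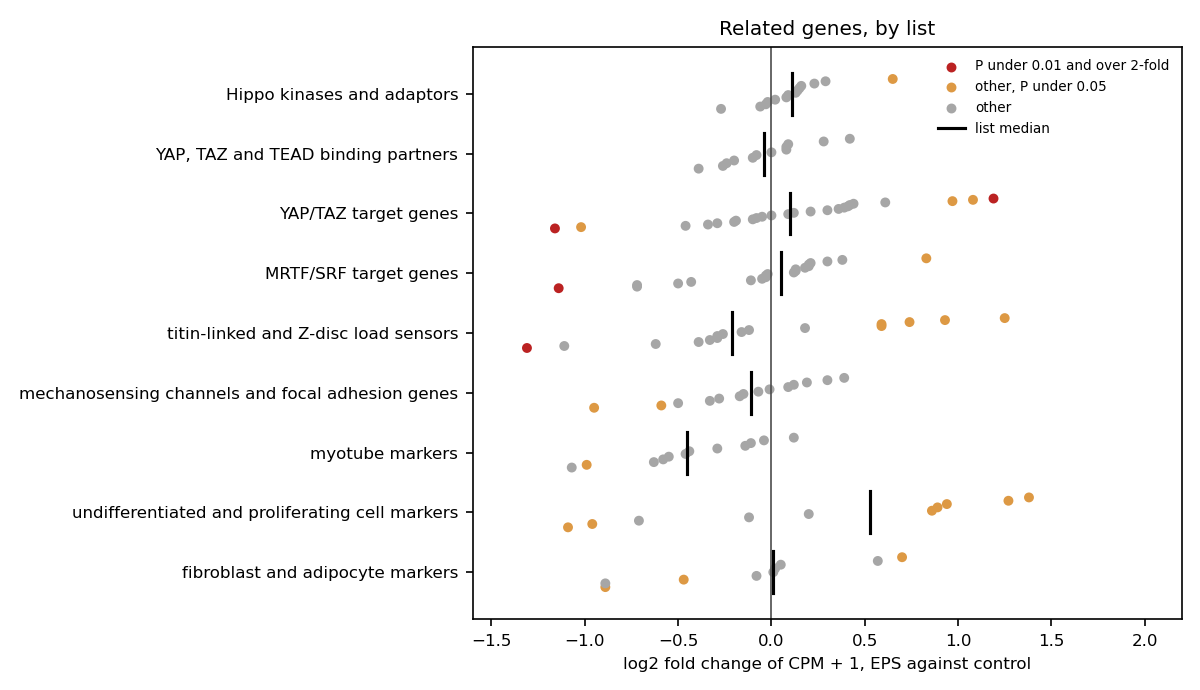
Log2 fold change of CPM + 1 between EPS and control for each tested gene of the 6 related lists and the 3 marker lists; red marks genes past P under 0.01 and 2-fold, orange the others at an unadjusted P under 0.05, and black bars the list medians. Red points are Igfbp3 and Birc5 among the target genes, Egr1 among the MRTF/SRF genes and Ankrd23 among the load sensors.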

How the data were processed

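RNA-seq values of 3 control and 4 EPS libraries of C2C12 myotubes were analysed. The authors selected poly(A) RNA, made directional paired-end libraries of 2 × 100 bp reads, mapped them to GRCm38 with STAR 2.5.4b and deposited CPM, a read count scaled to the library's total. The counter, gene annotation and strand setting are not given in the sources used here. All values, 100% per library, were whole multiples of 1 read within 0.02, so whole reads were recovered. The log2(CPM + 1) of genes above 0 in at least 1 library was tested with limma 3.58.1 (R 4.3.3), with all 7 libraries and no covariate. A P under 0.01 with over 2-fold, thresholds of the study's results, or a Benjamini-Hochberg adjusted p under 0.05 counted as a call. Single genes were also tested by exact permutation over 35 assignments. The pseudocount of 1 understates changes of low genes. No 2 replicates of a group agreed within sampling noise. Alternatives were other pseudocounts, filters, scalings, robust variance, a replicate block, a stricter P, each library left out, and edgeR 4.0.16 and DESeq2 1.42.0 on the recovered reads. The tests were tried on simulated reads. The 10 genes and all lists were chosen with earlier results of these data known. Genes named were the 10, in each list those past P and 2-fold or, if none, the 2 with the smallest P, and the 3 genes with the highest correlation with Ctgf, Cyr61, Ankrd1 and Vgll2. Others were named after their values were seen. Coordinates are those of GENCODE M21.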

Additional observations from a re-analysis of the deposited data

Results flagged for a closer look

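In the EPS group of 4 libraries, Ankrd1 in replicate 2 stood apart. Its gap to the nearest library was 0.904 of the group's range on the log2(CPM + 1) scale, above Dixon's 95% critical value for 4 samples. Its level was 750.7 CPM there and 503.5 to 523.1 CPM in the other EPS libraries. Of the other 9 genes, 0 were flagged this way in the EPS group, and chance flags about 1 group in 20. The control group of 3 libraries was not checked this way, and there Ctgf stood at 104.7, 105.9 and 191.1 CPM.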

How the results depend on the processing

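Ctgf passed P under 0.01 and 2-fold in each of the 18 alternatives, with log2 fold changes from -1.52 to -1.04 and adjusted p from 2.77e-06 to 0.51 across limma, edgeR and DESeq2. Cyr61 stayed lower at -0.81 to -0.59, with adjusted p from 0.0261 to 0.558. Ankrd1, Lats2, Wwtr1, Tead4 and Vgll2 also kept their sign. Yap1 turned to -0.0047 with quantile normalization, -0.05 with median-of-ratios scaling, -0.03 in edgeR, -0.05 in DESeq2, -0.08 without control replicate 3 and -0.00016 without EPS replicate 3. Tead1 turned to 0.03 with the replicate block, 0.15 without control replicate 1, 0.03 without EPS replicate 2 and 0.05 without EPS replicate 4. Amotl2 turned to 0.05 without control replicate 1 and 0.08 without EPS replicate 4. With 1 library left out, Yap1 ranged from -0.08 to 0.18, Tead1 from -0.16 to 0.15 and Amotl2 from -0.19 to 0.08. The cause of these shifts was not tested. Over all genes, the 269 calls by P and 2-fold became 601 with a pseudocount of 0.1, 169 with no filter, 161 with the replicate block, 629 in edgeR, 585 in DESeq2 and 106 at P under 0.001, and 209 to 325 with 1 library left out. The 27 genes with an adjusted p under 0.05 became 106 with a pseudocount of 0.1, 121 with a mean of at least 1 CPM, 10 with no filter, 17 with quantile normalization, 0 with the replicate block, 290 in edgeR and 497 in DESeq2, and 0 to 27 with 1 library left out. Of the 10 genes, 0 had such an adjusted p in the limma test of the report, 1 had with a pseudocount of 0.1, 1 with a mean of at least 1 CPM, 1 in edgeR and 2 in DESeq2, and 0 with any 1 library left out. The labels do not say whether libraries of the same replicate number belong together. The correlation of their deviations from the group means was 0.245 for number 1, -0.447 for number 3 and 0.0679 for number 4. With so few libraries these values cannot settle whether the numbers pair them, and EPS replicate 2 has no control of its number. With the replicate block Ctgf was -1.31 and still past P under 0.01 and 2-fold in limma, and Birc5 (1.31) and Ankrd23 (-1.50) were not past P under 0.01. At P under 0.001 with 2-fold, the P given in the study's methods, Ctgf and Egr1 kept their limma calls. Igfbp3, Birc5 and Ankrd23 lost theirs, with unadjusted P of 0.00187, 0.00911 and 0.00798. Of the 10 genes Vgll2 had the fewest reads, 68 to 194 per library.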

Other observations

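Ratios between members within a library do not depend on its total count. They were chosen after the values had been seen and are given as values. The groups did not overlap in 2 of the 5 ratios computed, and the share over other pairs of genes was not computed. Tead4 over Tead1, in CPM, was 0.418, 0.466 and 0.589 in the control libraries and 0.304, 0.399, 0.391 and 0.381 in the EPS libraries, in the order of their numbers, so that all EPS libraries were below the control libraries although neither gene separated the groups without overlap on its own. Ctgf over Ankrd1 was 0.160, 0.170 and 0.341 in the control and 0.113, 0.065, 0.0859 and 0.102 in the EPS group, again without overlap, as for Ctgf on its own. Wwtr1 over Yap1, the transcripts of TAZ and YAP, was 3.58, 6.65 and 3.71 in the control and 3.06, 4.93, 2.55 and 2.71 in the EPS group, and the groups overlapped. They also overlapped for Ctgf over Cyr61, at 0.498 to 0.872 in the control and 0.324 to 0.547 in the EPS group, and for Cyr61 over Ankrd1, at 0.276 to 0.391 and 0.149 to 0.314.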
